A study of Mus musculus with 8 samples.

Results

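The genes described here are 10 regulators of protein breakdown in skeletal muscle: the ubiquitin ligase genes Fbxo32, Trim63, Fbxo30, Fbxo40, Traf6 and Nedd4, the forkhead transcription factor genes Foxo1, Foxo3 and Foxo4, and Eda2r, the gene of a receptor of the tumour necrosis factor receptor superfamily. They were taken by symbol from a table of 23930 targets, each the single amplicon of a gene, and all 10 were present. RNA came from the tibialis anterior (TA), a muscle at the front of the shin made largely of fast fibres, in 4 KO and 4 WT mouse libraries. The KO mice carried an inducible, skeletal muscle specific HSA-Cre (a Cre recombinase driven by a skeletal actin promoter) and a floxed Sdhc gene, labelled HSA-Cre/Lox-SDHC, while their WT littermates carried the same HSA-Cre without the floxed gene (HSA-Cre/No Lox). Both groups received tamoxifen at 12 weeks of age and were sampled 3 weeks later, so Cre and tamoxifen were shared by both groups. The growth protocol names C57/B6 mice, while the genotype field names C57BL/6 for WT and gives each KO library a strain number of its own. The skeletal actin promoter is a promoter of muscle fibres, and the muscle also holds cells of other types. The cells behind the Sdhc RNA left in KO libraries were not measured. The title of the series names muscle respiration, fatigue and muscle mass, and ligase genes of this kind are the usual RNA markers of muscle loss.

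Skeletal muscle loses mass when the ubiquitin-proteasome system and autophagy break down more protein than the fibre makes. FoxO factors are held in the cytoplasm when the kinase Akt phosphorylates them downstream of insulin and IGF1. When that signal weakens they enter the nucleus and switch on genes of breakdown, among them Fbxo32 and Trim63, which rise in fasting, denervation, disuse and glucocorticoid excess. FoxO activity is set mainly by phosphorylation and location of the protein, which RNA levels do not show.

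The FoxO core motif was looked for in the promoters of these genes, and the promoters that hold it are shown here. Sequences were those of RefSeq on GRCm38.p6, and 8 of the 10 genes, all but Fbxo32 and Foxo4, had an entry, with 10 start sites in all. The motif searched was GTAAACA on both strands (TGTTTAC on the other), over the 250 bases before each start. It occurs in 3.17% of the 32851 mouse promoter windows of that length. Among these genes it was present once in Trim63 and once in Eda2r, and these letters were not in the windows of Fbxo30, Fbxo40, Traf6, Nedd4, Foxo1 and Foxo3. In both promoters below, written 5′ to 3′ on the strand of the gene and ending at the base before the start, capitals mark the motif. Trim63 lies at chr4:134314870-134315119, plus strand, and Eda2r at chrX:97377210-97377459, minus strand.
Trim63: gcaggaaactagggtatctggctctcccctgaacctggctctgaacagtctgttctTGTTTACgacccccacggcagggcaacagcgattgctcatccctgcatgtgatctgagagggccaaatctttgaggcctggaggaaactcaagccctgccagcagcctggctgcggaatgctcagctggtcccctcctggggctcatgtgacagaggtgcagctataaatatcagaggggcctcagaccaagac
Eda2r: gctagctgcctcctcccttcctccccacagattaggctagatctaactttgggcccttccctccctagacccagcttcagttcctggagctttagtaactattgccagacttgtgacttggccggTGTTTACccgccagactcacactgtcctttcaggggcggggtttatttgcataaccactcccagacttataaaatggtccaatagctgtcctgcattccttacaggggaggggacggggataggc

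The FoxO core of Trim63 spans the bases 194 to 188 before the start. It directly follows TGTTCT, the hexamer that glucocorticoid receptor sites repeat, at the bases 200 to 195. That hexamer, searched as TGTTCT and AGAACA, occurs in 16.1% of the windows. It was also present once each in a promoter of Nedd4 and in one of Fbxo40. In Eda2r the FoxO core spans the bases 125 to 119. A match of letters is a description of the window and says nothing of binding in these muscles.

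The libraries held 5983175 to 9119006 reads. Sdhc, the deleted gene, stood at 16.9, 46.5, 18.7 and 54.3 RPM (reads per 1000000 reads on targets) in KO1 to KO4, against 737, 853, 848 and 748 RPM in WT1 to WT4, so the labels of all 8 libraries went with the level of the targeted gene. Where its amplicon lies with respect to the floxed exon is unknown here. Skeletal muscle fibre markers summed to 79530 to 91620 RPM in KO and 71690 to 89590 RPM in WT libraries, which goes with the labelled tissue. Bone markers, 6 genes of 7 listed, summed to 3.473 to 19.12 RPM in KO libraries and to 493, 72.1, 21.7 and 1041 RPM in WT1 to WT4. Fibroblast markers summed to 366 to 683 RPM in KO and 908 to 6255 RPM in WT. Most of that sum in WT1 and WT4 was Col1a1, at 3440 and 5566 RPM. Dcn and Pdgfra overlapped between the groups. Dpt, Lum and Col1a1 were lower in every KO library than in any WT library, as in 4.56% of all tested targets. Macrophage markers summed to 19.3 to 28.0 RPM in KO and 36.1 to 180 RPM in WT. Most of that sum was Lyz2, at 13.4 to 19.9 RPM in KO and 27.6 to 121 RPM in WT. Lyz2 and Adgre1 were lower in every KO library than in any WT library. Cd68, Tyrobp and Csf1r overlapped between the groups, and C1qa was above 0 in KO1 alone. In a bulk tissue, fewer cells of a type and less RNA per cell cannot be told apart. How bone RNA came to be in these samples was not tested. Xist and 4 Y-linked genes marked replicates 1 and 3 of each group as male, and 2 and 4 as female. The labels number the samples of a group and do not state that each is another mouse, so p-values measure the spread between these samples.

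No gene of the 10 passed the test between KO and WT. All 10 were tested in a limma fit of log2(RPM + 1) over 11004 targets, with Benjamini-Hochberg (BH) adjustment over all of them and a threshold of 0.05. In that fit 0 of the 10 passed. Of the 10, edgeR and DESeq2 on recovered reads also called 0, beside 1 and 149 over all targets. Over all targets limma called 3, or 0.0273%, with Sdhc among them. At an unadjusted p under 0.05 stood 1 of the 10, Foxo4, against 9.22% of all tested targets. The log2 fold changes, KO over WT, ran from -0.38 for Foxo1 to 0.33 for Foxo4, 4 above 0 and 6 below. Their median was -0.03, beside a median of -0.05 over all tested targets.

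**Figure D1:**
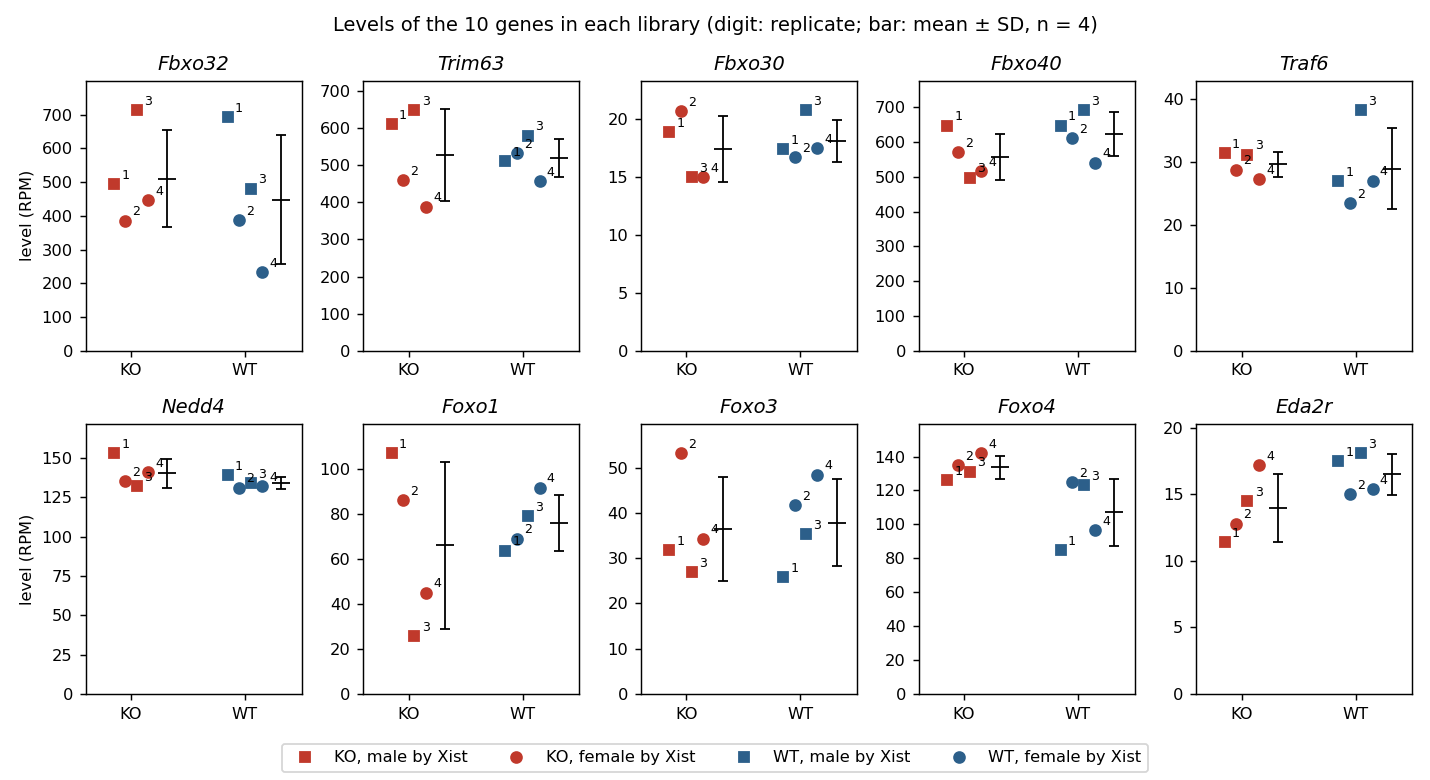
Level of each of the 10 genes in RPM (vertical axes from 0) in the 4 KO libraries, left, and the 4 WT libraries, right; digits are replicate numbers, squares and circles the sex read from Xist, and bars the mean ± SD (n = 4). KO and WT points overlap in 9 panels, and in Foxo4 the 4 KO points (126 to 142 RPM) sit above the 4 WT points (84.9 to 125 RPM).

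Fbxo32 encodes atrogin-1, the F-box protein that brings substrates to an SCF ubiquitin ligase and is the best known marker of muscle atrophy. It lies on chromosome 15, 58175879 to 58214932, minus strand (GRCm38, GENCODE M21, as for all gene positions here). Fbxo32 stood at 494, 385, 714 and 446 RPM in KO1 to KO4, against 693, 387, 480 and 233 RPM in WT1 to WT4. KO3 and WT1 were the highest libraries and WT4 the lowest, and the groups overlapped almost fully. The mean was 510 ± 143 RPM in KO and 448 ± 192 RPM in WT (SD, n = 4 each). On the log2 scale the fold change was 0.25 (SE 0.28, limma, adjusted p = 0.89), with a 95% interval from -0.34 to 0.85. The interval reaches from 0.79 to 1.80 times the WT level, so a fold above 1.80 lay outside it. WT4 weighed on this value, which was -0.03 without it and 0.50 without WT1.

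Trim63 encodes MuRF1, a RING finger ligase of the sarcomere whose known targets include myosin heavy chain. It lies on chromosome 4, 134315120 to 134329629, plus strand, and its promoter is the first printed above. Trim63 stood at 611, 459, 649 and 388 RPM in KO1 to KO4, against 511, 532, 579 and 457 RPM in WT1 to WT4. The KO libraries spread on both sides of the WT range, with KO1 and KO3 above all WT libraries and KO4 below them. The means were 527 ± 124 RPM in KO and 520 ± 50.4 RPM in WT (SD, n = 4 each). The fold change, as log2, was -0.01 (SE 0.16, limma, adjusted p = 0.999), with a 95% interval from -0.36 to 0.34, or 0.78 to 1.27 times the WT level. Under TMM scaling its sign turned (0.05).

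Fbxo40 and Fbxo30 are F-box genes as well. Fbxo40 encodes a muscle-enriched F-box protein whose known substrate is Irs1, an adaptor of the insulin and IGF1 receptors. Fbxo40 (chromosome 16, 36963460 to 36990467, minus strand) stood at 647, 571, 498 and 516 RPM in KO1 to KO4, against 648, 611, 693 and 541 RPM in WT1 to WT4. KO3 and KO4 lay below every WT library, and the groups overlapped. KO over WT, the log2 fold change was -0.16 (SE 0.13, limma, adjusted p = 0.812), with a 95% interval from -0.43 to 0.11. Fbxo30 encodes the ligase MUSA1, which BMP signalling keeps low in muscle. Fbxo30 (chromosome 10, 11281330 to 11298052, plus strand) stood at 18.9, 20.7, 15.0 and 15.0 RPM in KO1 to KO4, against 17.4, 16.7, 20.8 and 17.5 RPM in WT1 to WT4. These values rest on 113 to 147 reads in KO and 117 to 159 reads in WT libraries. The Poisson interval was 12.4 to 17.9 RPM for KO3 and 17.6 to 24.3 RPM for WT3 (95%, counting error only). An overlap of such intervals is not a test of the difference between the libraries. The log2 fold change was -0.06 (limma with BH, adjusted p = 0.955), with a 95% interval from -0.39 to 0.26.

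Traf6 and Nedd4 encode ligases with wider roles. Traf6 is a RING finger ligase and adaptor that carries signals of interleukin-1 and Toll-like receptors to NF-kB, and its loss in mouse muscle is known to protect from atrophy. Traf6 (chromosome 2, 101678429 to 101701669, plus strand) stood at 31.3, 28.7, 31.1 and 27.2 RPM in KO1 to KO4, against 26.9, 23.4, 38.2 and 27.0 RPM in WT1 to WT4. All KO libraries lay inside the WT range. The fold change, as log2, was 0.05 (limma with BH, adjusted p = 0.961), with a 95% interval from -0.28 to 0.39. Nedd4, a HECT domain ligase of membrane proteins, was steady in both groups. Nedd4 (chromosome 9, 72662346 to 72749852, plus strand) stood at 153, 135, 132 and 141 RPM in KO1 to KO4, against 139, 131, 134 and 132 RPM in WT1 to WT4. Its coefficient of variation was 6.59% in KO and 2.72% in WT, and 99.3% of the 6696 targets averaging 10 RPM or more had a larger or equal one in WT. KO over WT, the log2 fold change was 0.06 (limma with BH, adjusted p = 0.935), with a 95% interval from -0.17 to 0.29, the narrowest among the 10.

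Foxo4 was the one gene whose groups did not overlap. It encodes the FoxO factor that, like Foxo1 and Foxo3, is known to be phosphorylated by Akt and binds the same kind of site. Foxo4 (chromosome X, 101254528 to 101260873, plus strand) stood at 126, 135, 131 and 142 RPM in KO1 to KO4, against 84.9, 125, 123 and 96.4 RPM in WT1 to WT4. The lowest KO library thus lay just above WT2, while WT1 and WT4 were well below the rest. The means were 134 ± 6.78 RPM in KO and 107 ± 19.7 RPM in WT (SD, n = 4 each). On the log2 scale the fold change was 0.33 (SE 0.14), with a 95% interval from 0.03 to 0.63. It did not pass the limma test (BH adjusted p = 0.439, unadjusted p = 0.0316), and it ranged over the alternatives from an adjusted p of 0.172 with DESeq2 to 1. Every KO library lay above every WT library in 0.536% of all tested targets, and below in 4.56%.

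The WT libraries with low Foxo4 were those with the most bone RNA. Bone markers summed to 493 RPM in WT1 and 1041 RPM in WT4, against 72.1 RPM in WT2 and 21.7 RPM in WT3. Without WT1 and WT4 the log2 fold change of Foxo4 was 0.11 (limma with BH, adjusted p = 1). These are also the lowest WT libraries of Foxo4 itself, so the smaller difference follows from leaving them out and says nothing about bone RNA. The part of bone RNA in the level of Foxo4 was not tested. The difference was of like size in both sexes, 0.33 in males and 0.34 in females (log2, KO minus WT, 2 libraries in each cell). WT1 is male and WT4 female, so each sex held a low WT library. The like size in both sexes is thus no separate support for the difference. Male KO libraries also held less Sdhc (16.9 and 18.7 RPM) than female ones (46.5 and 54.3 RPM).

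**Figure D2:**
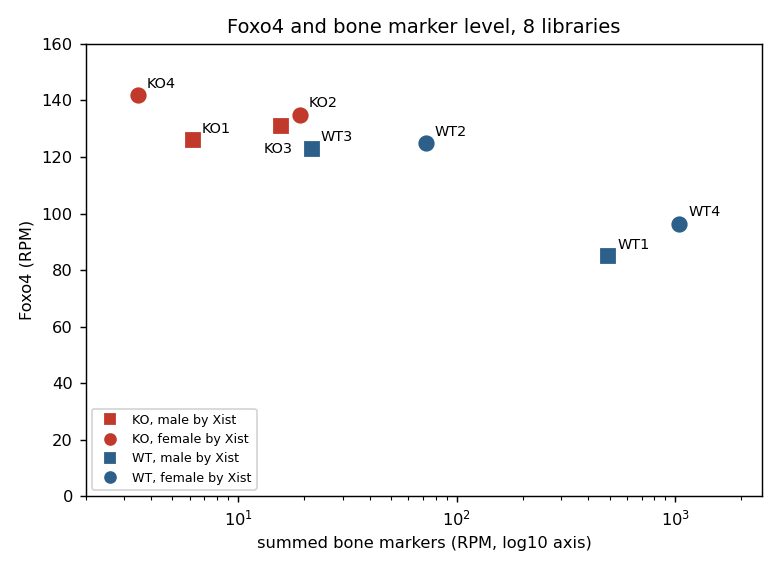
Foxo4 (vertical axis, RPM) against the summed level of 6 bone markers (horizontal axis, RPM, log10) in each library; red KO, blue WT, squares and circles the sex read from Xist. WT1 (84.9 RPM) and WT4 (96.4 RPM) are lowest in Foxo4 and highest in bone markers, while WT2 and WT3 (125 and 123 RPM) sit just under the KO libraries.

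Foxo1, a FoxO factor whose RNA is known to rise in fasted muscle, differed among KO libraries more than between the groups. Foxo1 (chromosome 3, 52268336 to 52353221, plus strand) stood at 107, 86.2, 25.7 and 44.9 RPM in KO1 to KO4, against 63.6, 69.0, 78.9 and 91.7 RPM in WT1 to WT4. KO1 lay above all WT libraries and KO3 and KO4 below all of them. The highest KO library held 4.16 times the level of the lowest, against 1.44 times in WT. The coefficient of variation was 56.5% in KO, a value reached by 1.0% of the 6696 targets averaging 10 RPM or more, and 16.3% in WT, reached by 41.5%. The means were 66.0 ± 37.3 RPM in KO and 75.8 ± 12.4 RPM in WT (SD, n = 4 each). The log2 fold change was -0.38 (SE 0.34, limma, adjusted p = 0.84), with a 95% interval from -1.11 to 0.34. Without KO3 it was -0.01 and without KO1 -0.68, and on recovered reads it was -0.19 with edgeR and -0.18 with DESeq2. None of these values passed. The lowest library rested on 208 reads, so the spread is wider than counting error. A test of the spread itself was not run.

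Foxo3, the FoxO factor with the firmest experimental tie to Fbxo32 in muscle, did not pass the test between the groups. Foxo3 (chromosome 10, 42181841 to 42276755, minus strand) stood at 31.8, 53.2, 26.9 and 34.3 RPM in KO1 to KO4, against 25.8, 41.7, 35.3 and 48.4 RPM in WT1 to WT4. KO2 and WT4 were the highest libraries and WT1 and KO3 the lowest. KO over WT, the log2 fold change was -0.06 (SE 0.22, limma, adjusted p = 0.972), with a 95% interval from -0.53 to 0.42.

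Eda2r encodes the receptor of the ectodysplasin isoform EDA-A2, which signals to noncanonical NF-kB and, in mouse muscle, promotes atrophy in tumour-bearing animals. Eda2r (chromosome X, 97333840 to 97377216, minus strand) stood at 11.4, 12.8, 14.5 and 17.2 RPM in KO1 to KO4, against 17.5, 15.0, 18.1 and 15.4 RPM in WT1 to WT4. KO1, KO2 and KO3 lay below every WT library and KO4 inside the WT range. The reads behind it were the fewest among the 10, at 68 to 149 in KO and 105 to 160 in WT libraries. The means were 14.0 ± 2.53 RPM in KO and 16.5 ± 1.55 RPM in WT (SD, n = 4 each). On the log2 scale the fold change was -0.24 (SE 0.16, limma, adjusted p = 0.751), with a 95% interval from -0.57 to 0.10.

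**Figure D3:**
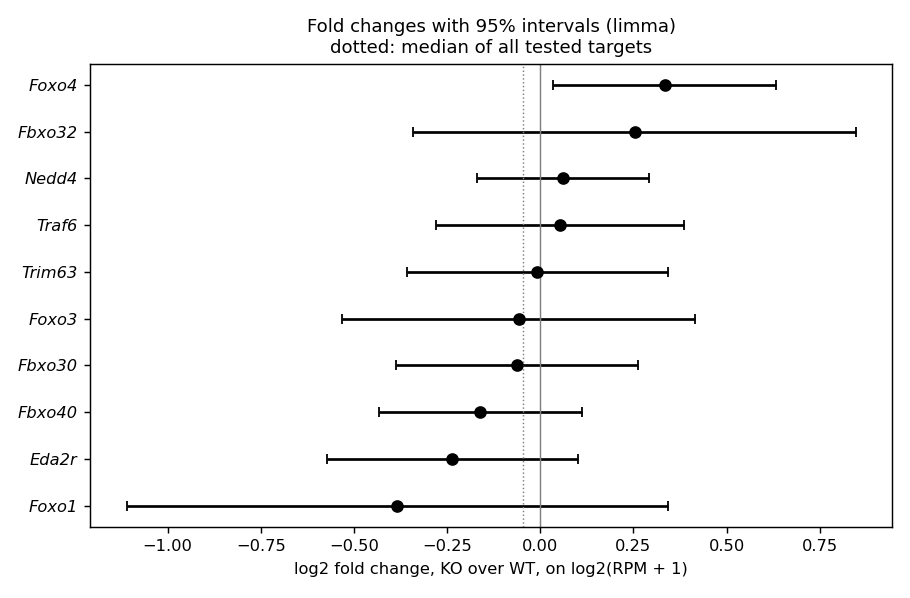
Log2 fold change of each gene, KO over WT on log2(RPM + 1), with its 95% interval from limma (4 libraries a group); the solid line is 0 and the dotted line the median of all 11004 tested targets (-0.05). The interval of Foxo4 (0.03 to 0.63) lies above 0, those of the other 9 genes span it, and that of Foxo1 (-1.11 to 0.34) is the widest.

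The levels of the 2 best known atrophy ligases were then set against those of the FoxO genes and Eda2r across the 8 libraries. In the 9 pairs computed, Fbxo32 and Foxo3 moved in opposite directions (Pearson r = -0.872, exact permutation p = 0.00402, BH adjusted over the pairs 0.0362; Spearman rho = -0.929, p = 0.00223, adjusted 0.0201). The libraries with the most Fbxo32, KO3 at 714 and WT1 at 693 RPM, held the least Foxo3, at 26.9 and 25.8 RPM. Without KO2 and WT4, the libraries farthest from the median of Foxo3, r was -0.966. As deviations from the group means r was -0.884. With libraries permuted only within each sex, the pair did not pass (r = -0.681 on deviations from the sex means, exact permutation p = 0.066, adjusted over the 9 pairs 0.297). The other 8 pairs did not pass (adjusted p 0.511 to 0.978 for r). Fbxo32 and Trim63 had r = 0.516 and rho = 0.69 (exact permutation p = 0.194 and 0.0694, adjusted 0.511 and 0.312), and Foxo1 and Fbxo32 had r = -0.569 (p = 0.118, adjusted 0.511). Trim63 and Eda2r, whose promoters hold the FoxO core, had r = -0.301 with each other (adjusted 0.833). Of the 8256 targets averaging 5 RPM or more that could be set against Fbxo32, 33, or 0.4%, had an r as low as that of Foxo3 or lower.

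Sex moved with both genes of that pair. Fbxo32 ran from 480 to 714 RPM in the 4 male libraries and from 233 to 446 RPM in the 4 female libraries, without overlap, as in 5.26% of all tested targets. Foxo3 ran from 25.8 to 35.3 RPM in males and from 34.3 to 53.2 RPM in females. In the within-sex test above, over 576 arrangements, 0 of the 9 pairs passed. The lowest p there belonged to Foxo1 and Fbxo32 (r = -0.691, exact permutation p = 0.0104, adjusted 0.0938). As deviations from the means of genotype and sex together, r of Foxo3 and Fbxo32 was -0.729, and with TMM scaling of the raw values -0.821. Trim63 averaged 588 ± 58.3 RPM in male and 459 ± 58.9 RPM in female libraries, and Traf6 31.9 ± 4.69 RPM in male and 26.6 ± 2.24 RPM in female libraries (SD, n = 4 each). Male and female ranges overlapped for both, as for all of the 10 genes but Fbxo32, and sex alone was not tested. The KO minus WT difference of Trim63 on the log2 scale was 0.21 in males and -0.23 in females, a difference between the sexes of 0.44 (limma with BH, interaction of genotype and sex, unadjusted p = 0.0862, adjusted p = 1). The Sdhc left in KO also split by sex, at 16.9 and 18.7 RPM in males and 46.5 and 54.3 RPM in females. Sex and the level of Sdhc left thus cannot be told apart in such contrasts. Among the 10 genes 0 passed that interaction, beside 0.0364% of all tested targets, and 0 had an unadjusted p under 0.05, beside 4.66%. These sex values were computed after the data had been seen.

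**Figure D4:**
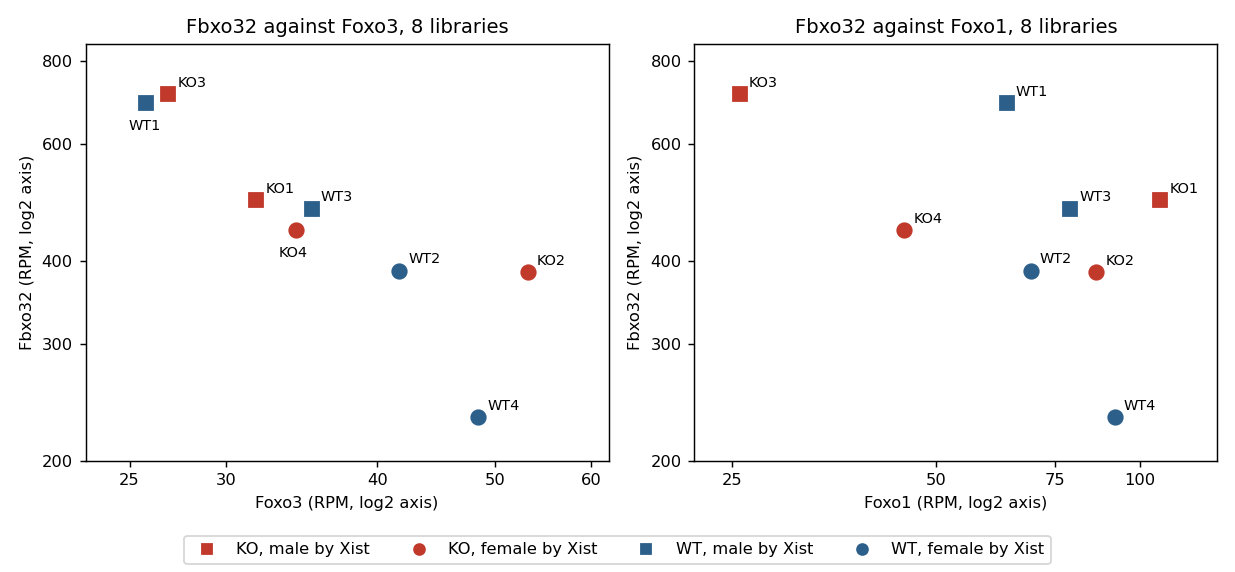
Fbxo32 (vertical axes, RPM, log2) against Foxo3 (left) and Foxo1 (right, both RPM, log2) in each library; red KO, blue WT, squares and circles the sex read from Xist. On the left Fbxo32 goes down as Foxo3 goes up (r = -0.872), with males at the upper left and females at the lower right, and on the right the points scatter more (r = -0.569).

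Among all targets of at least 5 RPM, those with the pattern most like Fbxo32 over the 8 libraries were Dpp9 (r = 0.93), Mrps18c (r = 0.928) and Pde4b (r = 0.912). Dpp9, a dipeptidyl peptidase, had 168, 146, 167 and 152 RPM in KO1 to KO4, against 169, 139, 161 and 126 RPM in WT1 to WT4. The patterns most like Trim63 were those of Klf4 (r = 0.948), Mark3 (r = 0.936) and Eif4ebp2 (r = 0.935). Klf4, a transcription factor, had 11.7, 4.36, 11.0 and 3.94 RPM in KO1 to KO4, against 7.35, 8.57, 7.85 and 5.48 RPM in WT1 to WT4. The patterns most like Foxo1 were those of Gtf3c4 (r = 0.968), Rabggtb (r = 0.95) and Dnajc8 (r = 0.948). These correlations are the highest of 8256 and are given as a description.

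The genes around the 10 were read from 10 lists, which hold 159 tested genes once each is counted once. None passed the limma test, and 7 had an unadjusted p under 0.05, a smaller share than the 9.22% of all tested targets in either direction. All 7 were lower in KO. Over all tested targets the groups without overlap were also mostly lower in KO, 502 targets against 59 higher. The same 159 had a median log2 fold change of -0.01, with 77 above 0 and 82 below. In edgeR and DESeq2, which called 1 and 149 over all targets, 0 of these list genes were called.

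The core of SCF ligases binds F-box proteins such as Fbxo32, Fbxo30 and Fbxo40. Its 7 tested genes had a median of 0.01, from -0.07 for Skp1a, the adaptor that binds the F-box, to 0.10 for Nedd8, the modifier that activates cullins. Ubiquitin, E1 and E2 genes had a median of -0.05 over 12 tested genes. Uba1, the main activating enzyme, averaged 222 ± 31.0 RPM in KO and 241 ± 2.93 RPM in WT (SD, n = 4 each), and Ube2k, a conjugating enzyme, 95.3 ± 19.6 RPM in KO and 110 ± 11.6 RPM in WT. The 11 deubiquitinases had a median of 0.02, and the lowest value was that of Uchl1 at -0.63 (limma with BH, adjusted p = 0.36), with 3.75 ± 0.569 RPM in KO and 6.61 ± 2.38 RPM in WT. Uchl1 rested on 18 to 36 reads in KO and 27 to 76 reads in WT libraries. Without WT1 and WT4, its highest libraries, the value of Uchl1 was -0.28. Usp28, another deubiquitinase, averaged 48.6 ± 8.92 RPM in KO and 62.6 ± 17.6 RPM in WT.

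Other ubiquitin ligases of muscle numbered 23 tested genes, with a median of 0.03, 12 above 0 and 11 below. Asb2, a substrate receptor that promotes loss of muscle mass in mice, stood at 351, 330, 395 and 308 RPM in KO1 to KO4, against 297, 241, 396 and 158 RPM in WT1 to WT4. The groups overlapped through WT3, and the log2 fold change of 0.41 did not pass (limma with BH, adjusted p = 0.63). It was 0.18 without WT4 and 0.62 without WT3. Ubr4, a large ligase of the N-degron pathway, averaged 626 ± 56.8 RPM in KO and 804 ± 154 RPM in WT (log2 fold change -0.34, adjusted p = 0.453). The HECT relatives of Nedd4 and their adaptors had a median of -0.02 over 8 tested genes. Wwp1, a relative of Nedd4, averaged 331 ± 40.6 RPM in KO and 280 ± 74.2 RPM in WT. Smurf1, a ligase of BMP pathway Smads, averaged 20.7 ± 3.10 RPM in KO and 17.4 ± 0.796 RPM in WT.

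Genes upstream and downstream of FoxO lay on both sides of 0. The 21 tested kinases, phosphatases and cofactors had a median of 0.03, with 11 above 0 and 10 below. Akt1, a kinase that phosphorylates FoxO proteins, stood at 97.6, 107, 102 and 116 RPM in KO1 to KO4, against 146, 111, 118 and 141 RPM in WT1 to WT4, with WT1 and WT4 again apart. Its log2 fold change was -0.28 (limma with BH, adjusted p = 0.514). Sirt1, a deacetylase of FoxO proteins, averaged 4.87 ± 1.0 RPM in KO and 3.44 ± 1.04 RPM in WT (adjusted p = 0.597). The 35 tested FoxO target genes other than Fbxo32 and Trim63 had a median of 0.004, with 18 above 0 and 17 below, and 0 had an unadjusted p under 0.05. The smallest p among them belonged to Cited2, a transcriptional coregulator, at 36.3 ± 11.3 RPM in KO and 27.9 ± 5.04 RPM in WT, and Mstn, the gene of myostatin, followed at 55.3 ± 18.8 RPM in KO and 64.2 ± 4.95 RPM in WT.

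The list around Eda2r and NF-kB had the lowest median of the 10, -0.14 over 16 tested genes, with 3 above 0 and 13 below, where 59.2% of all tested targets lay below 0. That median was -0.28 without WT1, -0.09 without WT3 and -0.08 with median-ratio scaling. Tnfrsf12a, the receptor of the cytokine TWEAK, stood at 20.9, 28.1, 27.1 and 19.1 RPM in KO1 to KO4, against 30.8, 44.7, 29.8 and 36.4 RPM in WT1 to WT4. No KO library reached the lowest WT library, as in 4.56% of all tested targets, and the log2 fold change of -0.55 did not pass (SE 0.17, limma, adjusted p = 0.22). Tnfrsf1a, a receptor of tumour necrosis factor, averaged 16.9 ± 2.55 RPM in KO and 23.4 ± 5.26 RPM in WT (adjusted p = 0.418). The macrophage and fibroblast marker sums given above were also lower in KO. The macrophage sum was mostly Lyz2, and the fibroblast sum was lower largely through Col1a1 in WT1 and WT4. The part of both sums in these values was not tested. Partners of Traf6 had a median of -0.05 over 10 tested genes, with Tifa at 2.33 ± 0.293 RPM in KO and 3.21 ± 1.21 RPM in WT. Myd88, the adaptor of Toll-like receptors, averaged 6.22 ± 1.0 RPM in KO and 7.25 ± 0.622 RPM in WT. Substrates and partners named for the ligases had a median of 0.03 over 18 tested genes. Vim, an intermediate filament gene abundant in fibroblasts, had the lowest value, -0.64 (limma with BH, adjusted p = 0.281). Vim stood at 42.2 to 67.0 RPM in KO and 67.7 to 129 RPM in WT libraries, without overlap, as in 4.56% of all tested targets. KO1 at 67.0 RPM and WT1 at 67.7 RPM nearly met, and without WT4 the log2 fold change was -0.44. Smad4, the shared Smad of TGF-beta and BMP signals, averaged 36.0 ± 8.16 RPM in KO and 44.4 ± 3.77 RPM in WT.

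**Figure D5:**
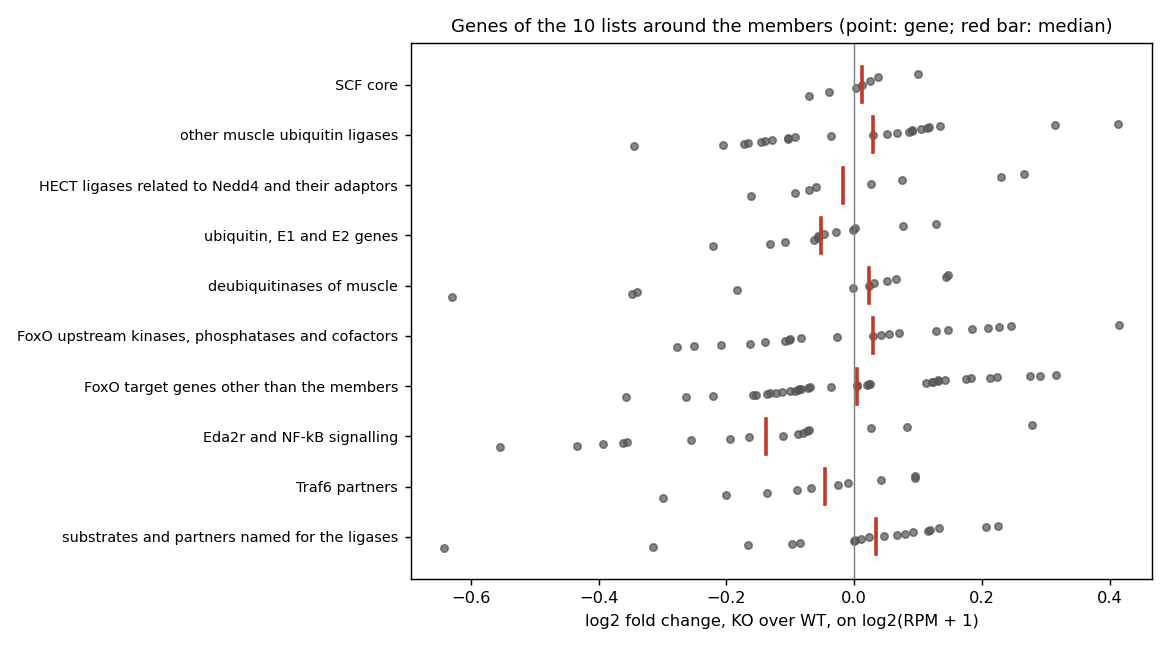
Log2 fold change, KO over WT on log2(RPM + 1) (horizontal axis), of every tested gene (points) in the 10 lists around the described genes (rows), with the median of each list as a red bar. The medians run from -0.14 for Eda2r and NF-kB signalling to 0.03, and the points farthest from 0 are Vim (-0.64) and Uchl1 (-0.63).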

How the data were processed

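Per the labels' protocols, TA muscle RNA was isolated with TriZol, treated to remove DNA, and amplified on the Ion Chef with a targeted panel, Ion AmpliSeq Transcriptome Mouse, that holds 1 amplicon per gene. The amplification of each target sets its level, so levels of different genes are not compared. The authors deposited RPM values, per the file headers 1 column per library, and each column sums to about 1000000. Transcriptome Analysis Console is named in the submitters' processing notes. No aligner, build or counting rule is given in the sources used here. Columns were matched to samples by barcode, and 0 belonged to no sample. All values (100.0%) came within 0.1 of a whole read, so reads were recovered by division. A level of 3 reads corresponds to 0.329 to 0.501 RPM, and Poisson intervals hold counting error alone.

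Targets averaging 1 RPM or more were fitted with limma 3.58.1 (R 4.3.3, intensity trend) on log2(RPM + 1), which understates changes near 1 RPM. Tests were two-sided, with BH adjustment over all 11004 targets. The procedure was checked on simulated reads, with the same scatter for every target and planted changes larger than those of the 10 genes. That check does not bear on differences as small as theirs. Alternatives were other pseudocounts, filters and scalings, no trend, library weights, edgeR 4.0.16 and DESeq2 1.42.0 on recovered reads, a block for replicate number, a term for sex, and leaving out libraries. Members and lists were chosen with earlier results of these data known. Named were all 10 genes, the 2 tested genes with the smallest p in each list where 0 passed, and the 3 targets closest in pattern to Fbxo32, Trim63 and Foxo1. Correlations used SciPy 1.17.1. Every pair of libraries of a group differed by more than sampling noise (chi-square over its degrees of freedom 12.26 to 34.36).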

Additional observations from a re-analysis of the deposited data

How the results depend on the processing

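In all 21 alternatives 0 of the 10 genes and 0 of the 159 list genes passed, with adjusted p down to 0.172 among the 10. Over all targets the count of 3 was 1 with TMM or median-ratio scaling, no trend, edgeR, the replicate block or without WT1 and WT4, 149 with DESeq2, and 1 to 130 when single libraries were left out (130 without WT3, 10 without KO1). Deviations of same-numbered libraries correlated at 0.257, 0.125, 0.105 and 0.00337. Of the KO libraries only KO2 correlated best with its same-numbered WT library. The numbers, which also carry sex, were not taken as pairs. Of 210 alternative fold changes 19 had the other sign, none of them called. Trim63 was at 0.0527, 0.0565, 0.0702 and 0.0755 with TMM, median ratio, edgeR and DESeq2, and from -0.12 to 0.13 over left-out libraries. Foxo3 was at 0.000903, 0.0046 and 0.0031 with TMM, median ratio and DESeq2, and from -0.25 to 0.070. Fbxo32 ran from -0.0251 to 0.50, Fbxo30 from -0.15 to 0.00040 and Traf6 from -0.0367 to 0.19 (-0.0205 without WT1 and WT4). Correlations of uncalled pairs also changed sign. Without the 2 farthest libraries r was -0.0544 for Foxo4 and Fbxo32 and 0.164 for Foxo1 and Trim63. From group means it was -0.211 for Foxo4 and Fbxo32 and 0.0139 for Foxo4 and Trim63, and with TMM 0.0283 for Foxo4 and Trim63. From sex means it was -0.18 for Fbxo32 and Trim63, 0.364 for Foxo3 and Trim63 and 0.275 for Foxo4 and Trim63, and from group and sex means 0.0143, 0.516 and 0.649 for Foxo1, Foxo3 and Foxo4 with Trim63. The cause was not tested. Among the 10 genes depth limits Eda2r and Fbxo30 most, at 68 to 160 reads. Of the named list genes, Uchl1, Sirt1, Tifa and Myd88 rested on 14 to 76 reads.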
